A study of Mus musculus with 6 samples.

Results

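The YAP and TEAD pathway genes examined here are the coactivators Yap1 and Wwtr1 (which encodes TAZ), the DNA-binding partners Tead1 and Tead4, the kinase Lats2, the angiomotin relatives Amotl1 and Amotl2, and the target genes Ankrd1, Ccn1 (also called Cyr61) and Ccn2 (also called Ctgf). They were taken by name from the deposited table and make up 10 of its 55401 genes. The table holds RNA-seq counts from kidney endothelial cells (ECs) of 3 CTRL and 3 RbpjΔEC mice, 1 library per mouse. The study deleted Rbpj, the DNA-binding effector of canonical Notch signaling, in adult ECs and compared the 2 groups. RbpjΔEC mice carried 1 copy of the tamoxifen-inducible Cdh5CreERT2 transgene, in which the VE-cadherin promoter drives the recombinase in ECs of all vessel types, on an Rbpjf/f background (Cre +/-; Rbpjf/f). CTRL mice were littermates without the transgene (Cre -/-; Rbpjf/f). Both groups received tamoxifen, 5 doses of 1.5 mg at 8 weeks of age, and kidneys were taken 12 weeks later, at a labelled age of 21 weeks. CTRL mice thus shared the floxed alleles and the drug but had no Cre, so that effects of the recombinase and of the deletion cannot be told apart. ECs were enriched on beads and sorted as CD31+CD45- cells.

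In the Hippo pathway, a kinase chain that ends in LATS1 and LATS2 phosphorylates YAP and TAZ, which are then kept in the cytoplasm or degraded. Unphosphorylated YAP and TAZ enter the nucleus, bind TEAD proteins and switch on genes such as Ccn1, Ccn2 and Ankrd1. Angiomotins bind YAP and TAZ at cell junctions, and Lats2 and Amotl2 are themselves YAP and TAZ targets, which gives the pathway negative feedback. In ECs the pathway responds to flow, stretch and cell contact, and it takes part in vessel sprouting. Most of this control acts on protein phosphorylation and location, which RNA levels do not measure, so the target genes are the usual RNA readout.

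TEAD proteins bind sites with the core letters GGAATG, which read CATTCC on the other strand. These letters were searched on both strands in 300-base RefSeq promoter windows (mouse build GRCm38.p6), from 250 bases before to 50 bases after the transcription start. Of the 10 genes, 7 had a window in the table used, and Tead1, Tead4 and Ccn2 did not. Lats2 and Wwtr1 each had 2 overlapping or alternative windows, which gave 9 windows in all. The letters were found in 7 of the 9 windows, belonging to Yap1, Wwtr1, Lats2, Amotl2, Ankrd1 and Ccn1, and not in that of Amotl1 or in the second window of Lats2. The 2 windows of Wwtr1 overlap and hold the same site, which is thus counted in both. Among all 32851 promoter windows, 14.7% held them. The windows of the target and feedback genes are shown because their RNA serves as the pathway readout, each 5′ to 3′ on the strand of the gene, with the matching letters in capitals.
Ankrd1, chr19:36119795-36120094, minus strand: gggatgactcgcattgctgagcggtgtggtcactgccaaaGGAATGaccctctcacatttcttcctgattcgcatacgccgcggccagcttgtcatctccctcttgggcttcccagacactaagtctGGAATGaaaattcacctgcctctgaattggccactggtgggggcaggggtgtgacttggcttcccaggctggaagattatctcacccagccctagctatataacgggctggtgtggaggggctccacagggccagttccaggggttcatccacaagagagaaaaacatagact
Ccn1, chr3:145649936-145650235, minus strand: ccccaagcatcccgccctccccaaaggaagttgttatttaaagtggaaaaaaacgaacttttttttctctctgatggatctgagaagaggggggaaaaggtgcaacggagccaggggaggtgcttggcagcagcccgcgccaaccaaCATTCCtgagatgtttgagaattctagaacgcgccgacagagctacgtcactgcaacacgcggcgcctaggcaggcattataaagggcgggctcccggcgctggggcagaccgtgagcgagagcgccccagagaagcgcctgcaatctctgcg
Amotl2, chr9:102717554-102717853, plus strand: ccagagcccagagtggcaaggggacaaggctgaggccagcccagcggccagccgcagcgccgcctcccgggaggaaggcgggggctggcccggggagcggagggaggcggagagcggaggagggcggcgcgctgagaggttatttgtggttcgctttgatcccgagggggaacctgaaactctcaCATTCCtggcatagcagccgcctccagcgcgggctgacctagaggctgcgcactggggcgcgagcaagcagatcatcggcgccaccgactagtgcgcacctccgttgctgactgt
Lats2, chr14:57746074-57746373, minus strand: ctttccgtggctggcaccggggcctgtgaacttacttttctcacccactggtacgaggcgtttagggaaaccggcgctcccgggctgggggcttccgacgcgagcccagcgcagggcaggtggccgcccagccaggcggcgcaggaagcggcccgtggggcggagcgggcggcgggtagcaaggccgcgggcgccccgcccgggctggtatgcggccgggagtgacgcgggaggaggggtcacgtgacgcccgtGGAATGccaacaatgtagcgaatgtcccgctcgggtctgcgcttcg
The Ankrd1 window held 2 matches, starting 210 and 123 bases before the first transcribed base. The match began 103 bases before that base in Ccn1 and 65 bases before it in Amotl2. In Lats2 it lay just inside the transcript, 4 to 9 bases after that base. The letters TGGGAA, a core of RBPJ binding sites, were in the Ankrd1 window alone among the 9, at 2 places on the opposite strand, and in 25.6% of all promoter windows. The AP-1 letters TGACTCA were in 0 of the 9 windows and in 5.2% of all promoter windows. The CArG box, the site of serum response factor, was likewise in 0 of the 9 and in 1.63% of all. These matches describe the letters only and say nothing of binding in these cells.

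The 6 libraries held 39649171 to 47726850 counts, at which 3 counts correspond to 0.0629 to 0.0757 CPM (counts scaled to library size). CTRL library 1 stood apart in breadth, with a count in 33764 genes against 25629 to 26785 in the others. The summed CPM of 10 endothelial markers was 20430 to 22180 in CTRL and 18300 to 18700 in RbpjΔEC libraries, far above that of 9 leukocyte markers at 15.7 to 18.7 and 24.0 to 29.4 CPM, with the T-cell marker Cd3e at 0 in every library. Of the markers tested by edgeR, 0 of 10 endothelial, 1 of 5 leukocyte and 1 of 9 tubule markers passed an adjusted p of 0.05. The tubule marker, Atp6v1b1, was lower in RbpjΔEC libraries. The leukocyte marker was Cd68, with means of 9.971 CPM in CTRL and 24.05 CPM in RbpjΔEC libraries. Of the 5 leukocyte markers tested, 2 were higher and 3 lower in log2 fold change. The lower ones were Ptprc (2.592 and 0.9572 CPM), Csf1r (2.375 and 0.7983 CPM) and Lyz2 (1.375 and 0.5763 CPM), of which DESeq2 called 2. Of the 10 endothelial markers, 1 was higher and 4 were lower when p was left unadjusted, and DESeq2 called 4 lower. The 4 lymphatic endothelial markers summed to 608 to 693 CPM in CTRL and 636 to 670 CPM in RbpjΔEC libraries. Most of this sum was Flt4, with means of 633.5 and 639.8 CPM. Prox1 had means of 9.004 and 10.13 CPM (edgeR adjusted p = 0.5425). Lyve1 had means of 1.246 and 0.547 CPM without overlap (edgeR adjusted p = 0.1616), and Pdpn was too low to test. Rbpj itself was at 29.2 ± 0.964 CPM in CTRL and 28.2 ± 1.87 CPM in RbpjΔEC libraries (mean ± SD, n = 3 each, adjusted p = 0.793 by edgeR's quasi-likelihood test). Whole-gene counts do not show the floxed part, so this value does not check the deletion. The Notch target Hey1 was at 19.7 ± 2.93 CPM in CTRL and 11.7 ± 2.83 CPM in RbpjΔEC libraries, with non-overlapping groups and an adjusted p of 0.0722 by edgeR and 0.00158 by DESeq2. The kit input was bulk RNA, in which fewer cells of a type and less RNA per cell cannot be told apart.

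None of the 10 pathway genes passed an adjusted p of 0.05 in RbpjΔEC against CTRL ECs by edgeR, DESeq2 or limma-voom, and 0 had an unadjusted p under 0.05 by edgeR. Across the 18438 genes tested, edgeR called 209, which is 1.13% (0.575% higher and 0.559% lower in RbpjΔEC), and 17.5% had an unadjusted p under 0.05. DESeq2 called 5.12% and limma-voom 0.797% of the same genes. At these shares a list of 10 genes is too short for a count of 0 adjusted calls to set it apart. The 3 values of each group overlapped for each of the 10 genes, whereas the groups did not overlap for 23.0% of all tested genes. On the log2 scale the 10 changes ran from -0.27 to 0.35, with 4 above and 6 below 0 and a median of -0.02, beside 0.01 over all genes. Their median size, regardless of sign, was 0.0593, beside 0.184 over all tested genes.

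**Figure D1:**
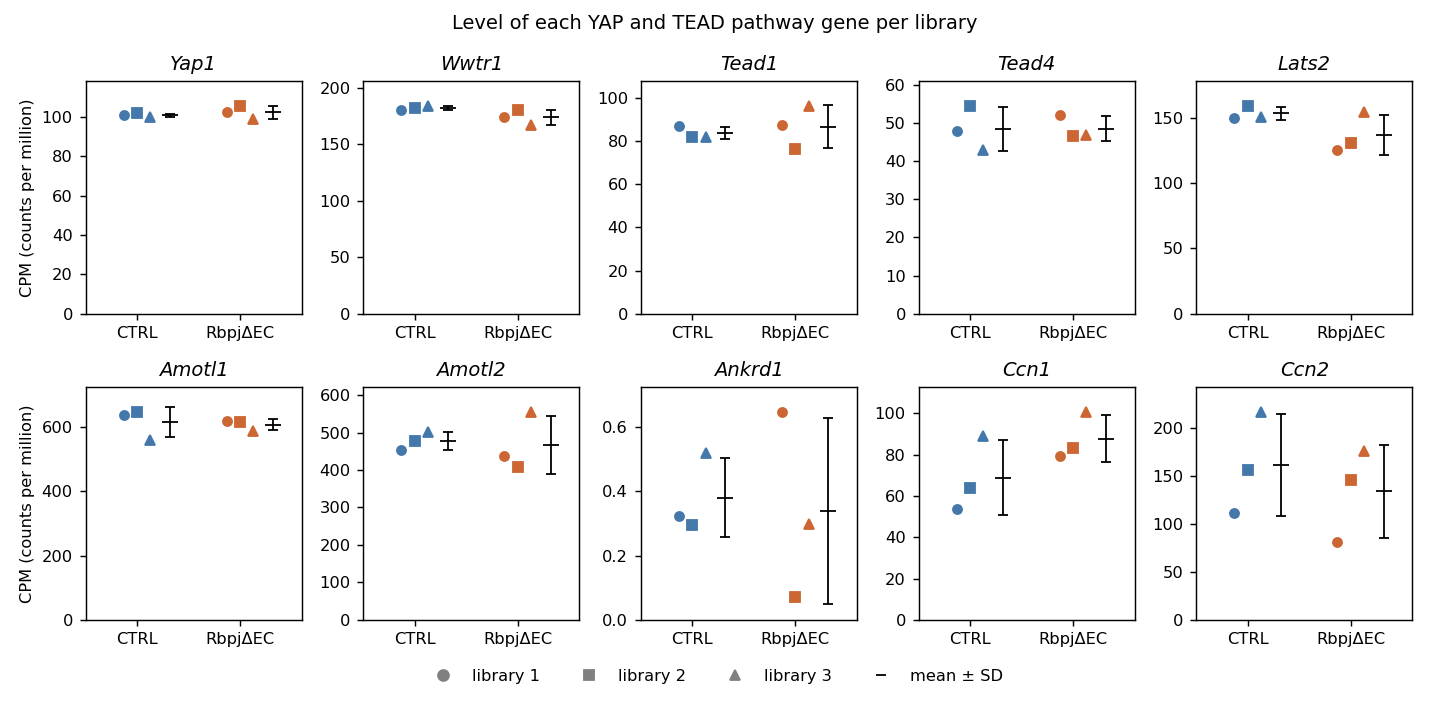
Level of each gene in CPM (linear axes from 0), with 1 point per library (circle, square and triangle for libraries 1, 2 and 3, which are not paired between groups) and the mean ± SD of each group of 3 beside the points. The points of the 2 groups overlap in all 10 panels. Yap1 and Wwtr1 barely vary, while Ankrd1 and Ccn2 vary most.

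The coactivator gene Yap1 had the smallest relative spread of the 10 genes over the 6 libraries. Yap1 (chr9:7931999-8004596, GRCm38) was at 100.9, 101.9 and 100.3 CPM in the CTRL and 102.6, 105.7 and 99.07 CPM in the RbpjΔEC libraries. The log2 fold change was 0.02 (SE 0.0644, edgeR adjusted p = 0.902), and its 95% interval ran from 8.0% lower to 11.8% higher. Changes of Yap1 RNA beyond these bounds thus lie outside the interval, whereas smaller ones could not be seen with 3 libraries per group. The coefficient of variation of Yap1 in CTRL libraries was 0.792%, below the 1.51% that counting alone gives at this depth, and it was 3.23% in RbpjΔEC libraries. Over the 8789 tested genes at 10 CPM or more, the median coefficient of variation was 7.17% in CTRL and 6.44% in RbpjΔEC libraries. Yap1 shares 116 of its 9257 exonic bases with the opposite-strand transcript Gm20416.

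Wwtr1 (chr3:57455649-57575910) was at 180.1, 182.0 and 183.9 CPM in CTRL and 173.9, 180.6 and 167.2 CPM in RbpjΔEC libraries. The highest RbpjΔEC library lay just above the lowest CTRL library. The log2 fold change was -0.07 (SE 0.0638, edgeR adjusted p = 0.632), with an interval from 13.3% lower to 5.21% higher. Per kilobase of exon it was the more abundant coactivator transcript and made up 77.7% ± 0.26 of the summed Wwtr1 and Yap1 level in CTRL and 76.7% ± 0.114 in RbpjΔEC libraries (SD, n = 3 each). The ratio of Wwtr1 to Yap1 in CPM within a library, which does not depend on the scaling between libraries, was 1.79, 1.79 and 1.83 in CTRL and 1.69, 1.71 and 1.69 in RbpjΔEC libraries. The 3 RbpjΔEC ratios were thus all below the 3 CTRL ratios. The difference was -0.09 on the log2 scale, or a ratio 0.942 times that of CTRL, and its standard error from counting alone was 0.0224. A two-sided exact permutation test gave p = 0.1, which is the smallest that 3 against 3 allows, and 0.2 after adjustment over the 4 ratios examined, so that this difference did not pass the threshold.

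The TEAD genes encode the DNA-binding partners of YAP and TAZ. Tead1 (chr7:112679318-112906807) was at 86.84, 81.94 and 82.04 CPM in CTRL and 87.30, 76.50 and 96.33 CPM in RbpjΔEC libraries. RbpjΔEC libraries held both the lowest and the highest value. It had a log2 fold change of 0.05 (SE 0.0858, edgeR adjusted p = 0.790), with an interval from 8.91% lower to 18.1% higher. Tead4 (chr6:128224288-128300823) was at 48.01, 54.52 and 43.07 CPM in CTRL and 52.24, 46.68 and 46.87 CPM in RbpjΔEC libraries. CTRL libraries held the extremes of Tead4, and the group means were 48.5 and 48.6 CPM. Its log2 fold change was 0.0016 (SE 0.0952, edgeR adjusted p = 0.995), and the interval ran from 13.3% lower to 15.6% higher. The ratio of Tead4 to Tead1 differed by -0.04 on the log2 scale, with overlapping groups and p = 0.9 by the exact permutation test (0.9 adjusted).

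Per kilobase, Tead4 was the main TEAD transcript, with 48.4% ± 2.4 of the summed level of the 4 TEAD genes in CTRL and 47.3% ± 1.34 in RbpjΔEC libraries. Tead2 gave 27.2% ± 1.49 and 27.8% ± 1.83, and Tead1 gave 22.2% ± 1.76 and 22.4% ± 2.37 (SD, n = 3 each). Tead3 was a minor form, with 2.08% ± 0.0886 in CTRL and 2.48% ± 0.137 in RbpjΔEC libraries. The place of Tead4 above Tead1 rests on their exonic lengths of 3.6 and 13.6 kb. In CPM, Tead1 was above Tead4, with means of 83.6 and 48.5 in CTRL and 86.7 and 48.6 in RbpjΔEC libraries. Of the list of other TEAD proteins and TEAD-binding cofactors, 3 of 6 genes were abundant enough to test and 0 passed an adjusted p of 0.05 by edgeR, or an unadjusted one. Tead3 had a log2 fold change of 0.30 (adjusted p = 0.431), Tead2 of 0.07 (adjusted p = 0.709) and Vgll4, which encodes a competitor of YAP for TEAD, of 0.06 (adjusted p = 0.726, all by edgeR).

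Lats2, the kinase that phosphorylates YAP and TAZ, had the smallest unadjusted p of the 10 genes. Lats2 (chr14:57689662-57758388) was at 150.0, 158.9 and 150.6 CPM in CTRL and 125.1, 130.9 and 154.4 CPM in RbpjΔEC libraries. Libraries 1 and 2 of RbpjΔEC lay below every CTRL library, and library 3 lay among them. The log2 fold change was -0.16 (SE 0.0831), with an interval from 21.2% lower to 1.27% higher, an unadjusted p of 0.0737 and an adjusted p of 0.335 by edgeR. Without RbpjΔEC library 3 the log2 fold change was -0.26 and the adjusted p 0.0924, and without RbpjΔEC library 1 they were -0.10 and 0.711. Lats2 shares 2955 of its 6971 exonic bases with the same-strand gene model Gm49361, which had 9 counts in all libraries together, so the part of its level that falls on the shared bases is uncertain. Per kilobase, Lats2 made up 95.9% ± 0.147 of the summed LATS level in CTRL and 95.6% ± 0.502 in RbpjΔEC libraries, with Lats1 as the rest.

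Of the list of Hippo kinases, adaptors and upstream regulators, 19 of 19 genes were tested and 0 passed an adjusted p of 0.05 by edgeR, and 4 had an unadjusted p under 0.05, of which 2 were higher and 2 lower in RbpjΔEC. The groups did not overlap for 7 of the 19. Across all tested genes 17.5% had an unadjusted p under 0.05 and 23.0% had groups that did not overlap. The counts of the list were not tested against these shares. The median log2 fold change of the list was -0.06. Taok2, a kinase upstream of the Hippo kinases, was at 527.4, 641.3 and 559.7 CPM in CTRL and 682.9, 679.3 and 714.1 CPM in RbpjΔEC libraries (log2 fold change 0.26, SE 0.0819, edgeR adjusted p = 0.129). Mob1a, the LATS coactivator, had means of 150.7 ± 3.37 and 131.5 ± 2.56 CPM (log2 fold change -0.20, edgeR adjusted p = 0.137). Map4k4, a kinase that can phosphorylate LATS, had means of 439 ± 21.7 and 507 ± 6.74 CPM (log2 fold change 0.21, edgeR adjusted p = 0.146). The groups did not overlap for these 3 genes, which missed the threshold in the main edgeR fit. Taok2 passed by edgeR when genes with low counts were kept (adjusted p = 0.01115) and without CTRL library 2 (0.03444). Mob1a and Map4k4 passed under none of the alternatives. The lowest change in the list was -1.22 for Wwc1, the gene of KIBRA, which was singled out after its values were seen. Wwc1 was at 12.17, 5.619 and 6.748 CPM in CTRL and 3.123, 2.050 and 5.390 CPM in RbpjΔEC libraries (edgeR adjusted p = 0.206, DESeq2 adjusted p = 0.00919). It was the 1 gene of the list that DESeq2 called. Wwc1 was highest in library 1 within CTRL and in library 3 within RbpjΔEC. The summed level of 9 tubule markers was 444.5, 290.3 and 289.6 CPM in CTRL and 156.2, 105.4 and 388.7 CPM in RbpjΔEC libraries. The part of tubule cells in the Wwc1 level was not tested.

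Per kilobase of exon, the angiomotin relatives Amotl2 and Amotl1 had the highest mean levels of the 10 genes. Amotl1 (chr9:14541966-14645056) was at 636.4, 646.6 and 561.0 CPM in CTRL and 618.4, 616.4 and 587.7 CPM in RbpjΔEC libraries. The RbpjΔEC values lay within the CTRL range. Its log2 fold change was -0.02 (SE 0.0756, edgeR adjusted p = 0.933), with an interval from 11.8% lower to 10.8% higher. Amotl2 (chr9:102716672-102733418), which is both an angiomotin and a YAP target, was at 452.7, 477.2 and 501.1 CPM in CTRL and 438.0, 408.0 and 554.7 CPM in RbpjΔEC libraries. The RbpjΔEC group held the lowest and the highest value. Its log2 fold change was -0.03 (SE 0.106, edgeR adjusted p = 0.909), with an interval from 16.7% lower to 15.1% higher. The sign of both changes flipped, to 0.03 for Amotl1 and 0.01 for Amotl2, when libraries were scaled by their totals alone, which also moved the median of all genes to 0.05. The ratio of Amotl2 to Amotl1 differed by -0.03 on the log2 scale, with overlapping groups and p = 0.8 by the exact permutation test (0.9 adjusted). Per kilobase, the angiomotin family was 52.7% ± 2.81 Amotl2, 42.4% ± 2.9 Amotl1 and 4.91% ± 0.209 Amot in CTRL, and 52.4% ± 4.59, 43.0% ± 4.28 and 4.62% ± 0.414 in RbpjΔEC libraries.

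The 3 target genes were the least certain. Ankrd1 (chr19:36111961-36120099), a cardiac and injury-responsive ankyrin repeat gene widely used as a YAP readout, was at the edge of detection in these ECs. It had 13, 14 and 22 counts in the CTRL and 29, 3 and 12 counts in the RbpjΔEC libraries, or 0.324, 0.296 and 0.521 CPM and 0.647, 0.0715 and 0.300 CPM. RbpjΔEC library 2 was at the 3-count level, and RbpjΔEC library 1 was the highest of the 6. Its log2 fold change was -0.15 (SE 0.671, edgeR adjusted p = 0.932), with an interval from 67.4% lower to 148% higher. A difference short of these bounds was not detectable, and a larger one could also miss the adjusted threshold. The coefficient of variation of Ankrd1 was 32.2% in CTRL and 85.4% in RbpjΔEC libraries, beside 24.7% and 26.1% from counting alone.

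Ccn1 and Ccn2 encode secreted matricellular proteins that bind integrins. Ccn1 (chr3:145646976-145649981) was at 53.60, 63.65 and 88.91 CPM in CTRL and 79.52, 83.25 and 100.6 CPM in RbpjΔEC libraries. CTRL library 3 lay above RbpjΔEC libraries 1 and 2, and the group means were 68.7 ± 18.2 and 87.8 ± 11.2 CPM. This is a log2 fold change of 0.35 (SE 0.198, edgeR adjusted p = 0.416, DESeq2 adjusted p = 0.199), with an interval from 8.33% lower to 77.9% higher. Without CTRL library 1 it was 0.20, and without CTRL library 3 it was 0.58, with edgeR adjusted p-values of 0.668 and 0.114. Ccn2 (chr10:24595442-24598683) was at 111.5, 156.1 and 216.8 CPM in CTRL and 81.21, 145.7 and 176.2 CPM in RbpjΔEC libraries. Its values spread widely within both groups, with means of 161.5 ± 52.8 and 134.4 ± 48.5 CPM. The log2 fold change was -0.27 (SE 0.404, edgeR adjusted p = 0.787), with an interval from 60.6% lower to 75.6% higher. Without CTRL library 3 it was 0.0030 and without RbpjΔEC library 1 it was -0.0058, while it was -0.48 without CTRL library 1 and -0.51 without RbpjΔEC library 3. Ccn2 shares 665 of its 2861 exonic bases with the opposite-strand transcript Gm15270, which had 221 to 371 counts per library. The kit keeps strand, but the strand setting of the counting was not given in the sources used here.

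**Figure D2:**
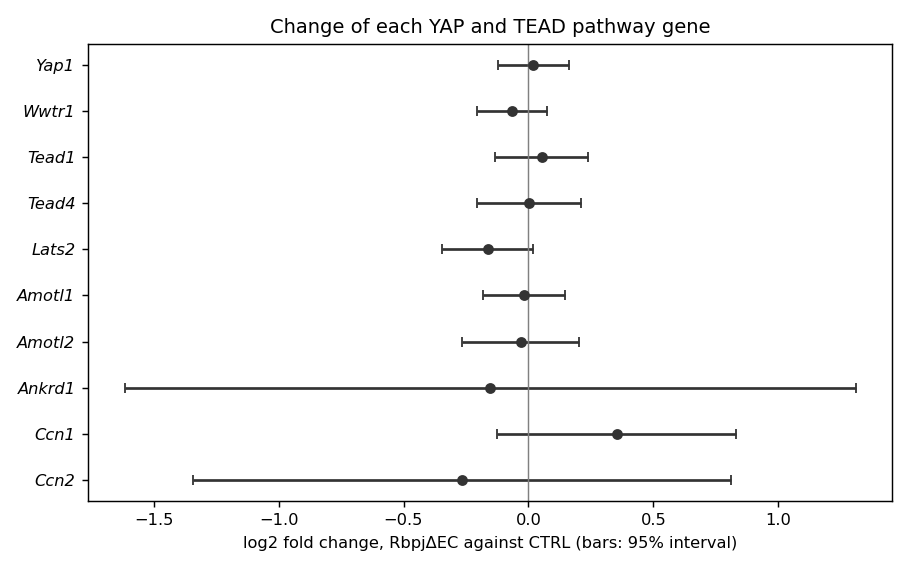
Log2 fold change of RbpjΔEC against CTRL for each gene (points, edgeR) with its 95% interval (bars). All 10 intervals hold 0. The intervals are narrow for Yap1, Wwtr1, the TEAD genes, Lats2, Amotl1 and Amotl2 and wide for Ankrd1, Ccn1 and Ccn2.

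The ratio of Ccn2 to Ccn1 within a library was 2.08, 2.45 and 2.44 in CTRL and 1.02, 1.75 and 1.75 in RbpjΔEC libraries. The groups did not overlap, although neither gene alone separated them. The difference was -0.66 on the log2 scale, a ratio 0.631 times that of CTRL, with a standard error from counting alone of 0.0260. The exact permutation test gave p = 0.1, the smallest that 3 against 3 allows, and 0.2 after adjustment over the 4 ratios. The SD of the log2 ratio was 0.135 in CTRL and 0.449 in RbpjΔEC libraries, of which RbpjΔEC library 1 was the lowest. Without that library the difference was -0.40. Per kilobase, Ccn2 was 60.2% ± 2.79 of the summed CCN family in CTRL and 49.0% ± 7.82 in RbpjΔEC libraries, and Ccn1 was 36.8% ± 1.73 and 47.3% ± 7.02. Of the other CCN genes, 3 of 4 were tested and 0 passed an adjusted p of 0.05 by edgeR, and the unadjusted p was under 0.05 for 1, which was higher in RbpjΔEC. That gene, Ccn4, had a log2 fold change of 0.49 (edgeR adjusted p = 0.150). The log2 fold changes of Ccn3 and Ccn6 were 0.13 and -0.04 (edgeR adjusted p = 0.850 and 0.9745), and the latter turned to 0.0036 with scaling by library totals alone.

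**Figure D3:**
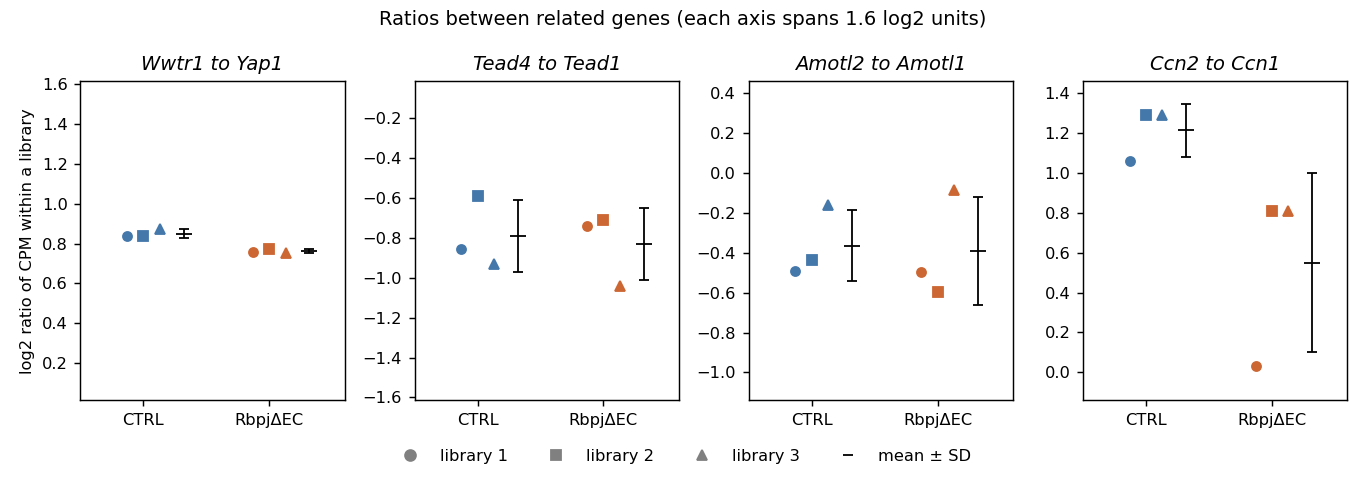
Log2 ratio of CPM between related genes within each library, with 1 point per library and the mean ± SD of each group of 3. Each axis spans the same number of log2 units. The groups separate for Wwtr1 to Yap1, by a small step, and for Ccn2 to Ccn1, and they overlap for the other 2 ratios.

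In each group 1 library was the highest in both Ccn1 and Ccn2. These were CTRL library 3 and RbpjΔEC library 3. The summed level of 9 tubule markers was 444.5, 290.3 and 289.6 CPM in CTRL and 156.2, 105.4 and 388.7 CPM in RbpjΔEC libraries, so that RbpjΔEC library 3 was the highest and CTRL library 3 the lowest of its group. Of the 9 markers, the proximal tubule genes Lrp2 and Slc34a1 were highest in both of these libraries, whereas Umod, Slc12a1, Slc12a3, Aqp2, Atp6v1b1 and Cdh16 were highest in CTRL library 1 within CTRL. The ninth marker, the proximal tubule gene Slc5a12, was highest in CTRL library 2 and in RbpjΔEC library 3. The part of tubule cells in the Ccn1 and Ccn2 levels was not tested.

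Ccn1 is itself an early response gene of stimulated cells. Of a list of 20 immediate-early genes, 19 were tested, 7 rose in RbpjΔEC ECs by edgeR and 0 fell, with a median log2 fold change of 0.50. The calls are 36.8% of the tested list, beside 0.575% of all tested genes called higher. Egr1 rose by 0.66 on the log2 scale, from 539.4 ± 40.7 to 854 ± 79.3 CPM (adjusted p = 0.00649 by edgeR). Btg2, Egr3, Atf3, Fos and Junb rose by 0.58, 0.995, 0.55, 0.46 and 0.51 on the log2 scale, with adjusted p-values from 0.0212 to 0.0430 by edgeR. Jun, Ier3 and Nr4a2 had log2 fold changes of 0.39, 0.50 and 0.61 and did not pass by edgeR (adjusted p = 0.0622, 0.0684 and 0.0719), whereas DESeq2 called them (adjusted p = 0.00205, 0.00337 and 0.00731) as part of the 13 genes of the list it called higher. The count of 7 depended on single libraries: it was 1 without CTRL 1, 0 without CTRL 3, 1 without RbpjΔEC 1 and 1 without RbpjΔEC 2, but 11 without CTRL 2 and 12 without RbpjΔEC 3. The ECs were released by collagenase digestion and sorted before RNA was isolated. The part of this handling in the immediate-early levels was not tested, nor was the part of these genes' rise in the Ccn1 level.

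Among 17 other known YAP and TAZ target genes, 16 were tested (Foxf2 had 0 counts in every library), 3 fell in RbpjΔEC ECs by edgeR and 0 rose. This is 18.8% of the tested list beside 1.13% of all genes, with a median log2 fold change of -0.10. Tgfb2, the ligand TGF-β2, was at 75.72, 76.83 and 78.85 CPM in CTRL and 39.48, 34.78 and 41.63 CPM in RbpjΔEC libraries. The groups lay far apart, with a log2 fold change of -0.998 (SE 0.0815, edgeR adjusted p = 0.000457). Ccdc80, an extracellular matrix protein, fell from 63.9 ± 4.94 to 40.3 ± 2.96 CPM, a log2 fold change of -0.67 (edgeR adjusted p = 0.00646). Arhgef17, a guanine nucleotide exchange factor, fell from 18.0 ± 2.54 to 10.1 ± 1.52 CPM, a log2 fold change of -0.82 (edgeR adjusted p = 0.0227). Tgfb2 passed without any 1 library, whereas Ccdc80 missed the threshold without RbpjΔEC 1 (adjusted p = 0.0610), and Arhgef17 missed it without CTRL 1, CTRL 3, RbpjΔEC 1 or RbpjΔEC 2, with adjusted p-values up to 0.0903. The count was 1 without RbpjΔEC 1 and 5 without RbpjΔEC 3. The groups did not overlap for these 3 genes, as they did for Ccn1, Ccn2, Ankrd1, Lats2 and Amotl2.

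Of the other targets, Gadd45a, a stress-response gene, had a log2 fold change of 0.38 (edgeR adjusted p = 0.126), Nt5e, the ectoenzyme CD73, of -0.87 (0.140) and Myof, the membrane repair protein myoferlin, of -0.54 (0.167). None of these 3 passed the threshold by edgeR, although Nt5e passed by DESeq2 (adjusted p = 0.0405) and by edgeR without RbpjΔEC library 3 (0.0145), and all 3 passed by edgeR when genes with low counts were kept (adjusted p = 0.0115 for Gadd45a, 0.00849 for Nt5e and 0.0174 for Myof). The lowest change in the list was that of Axl, a receptor tyrosine kinase, which was singled out after its values were seen. Axl was at 7.582, 6.506 and 8.027 CPM in CTRL and 2.498, 2.312 and 6.139 CPM in RbpjΔEC libraries, without overlap. Its log2 fold change was -1.02, with an adjusted p of 0.191 by edgeR (0.00271 to 0.432 with 1 library left out) and 0.0249 by DESeq2. With the replicate number as a block in edgeR, the adjusted p of Axl was 0.0474. Several targets in this list are known to be expressed also by mural cells and fibroblasts, whose markers were lower in RbpjΔEC libraries. The 10 mural markers summed to 246 to 292 CPM in CTRL and 188 to 224 CPM in RbpjΔEC libraries; 9 were tested, 9 had a lower mean and 3 passed by edgeR, with a median log2 fold change of -1.08. These 3 are 33.3% of the tested markers, beside 0.559% of all tested genes called lower. By edgeR the 3 calls became 0 without CTRL 1 or RbpjΔEC 1, 1 without CTRL 3, 2 without CTRL 2 or RbpjΔEC 2 and 7 without RbpjΔEC 3, and DESeq2 called 7. The 7 fibroblast markers summed to 4.63 to 7.08 and 1.54 to 2.92 CPM, with Dpt at 0 in every library. Of these 7 markers 3 were high enough to test, each with a lower mean, and Pdgfra passed by edgeR (adjusted p = 0.0468, 0.00473 to 0.186 with 1 library left out). DESeq2 called 2. The part of mural cells and fibroblasts in the lower target levels was not tested.

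**Figure D4:**
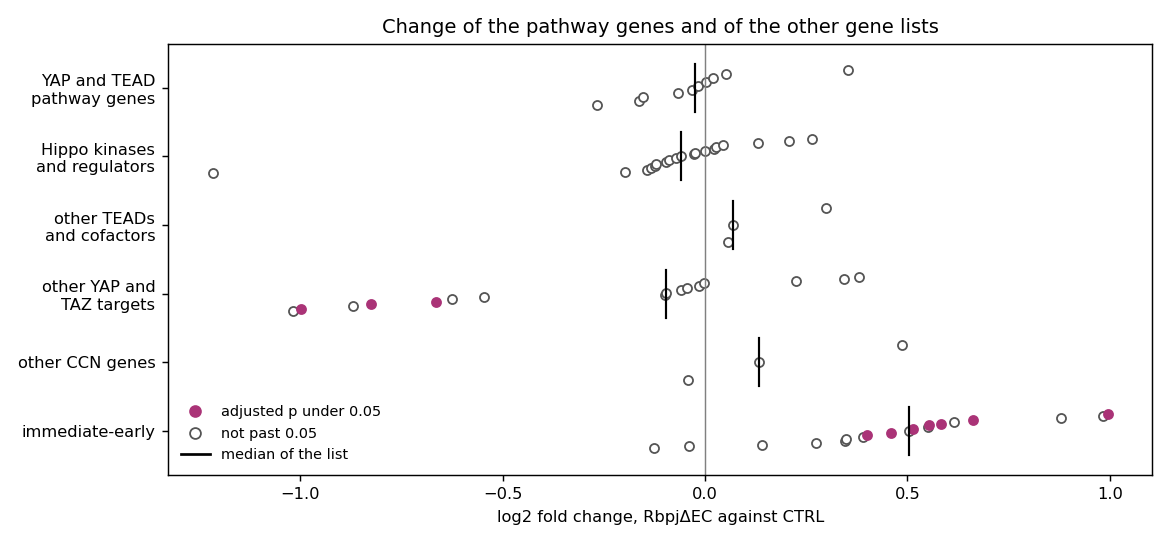
Log2 fold change of RbpjΔEC against CTRL for every tested gene of the YAP and TEAD pathway genes and of 5 related lists, 1 point per gene, filled where the edgeR adjusted p is under 0.05, with the median of each list as a line. The pathway genes and the Hippo regulators cluster near 0 with no filled point, 3 other YAP and TAZ targets are filled to the left and 7 immediate-early genes to the right.

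Set side by side per kilobase of exon over all 6 libraries, the levels ran from Amotl2 at 75.0 ± 8.21 CPM per kilobase through Amotl1 at 60.7 ± 3.15, Ccn2 at 51.7 ± 16.7, Ccn1 at 38.8 ± 8.46, Wwtr1 at 37.2 ± 1.31, Lats2 at 20.8 ± 1.96, Tead4 at 13.5 ± 1.15, Yap1 at 10.99 ± 0.247 and Tead1 at 6.28 ± 0.497 to Ankrd1 at 0.125 ± 0.0694 (SD, n = 6). Neighbours in this order overlapped in range for Amotl1 and Ccn2, for Ccn2 and Ccn1, and for Ccn1 and Wwtr1, so the order within that stretch is not resolved. The other neighbours kept their order in 6 of 6 libraries without overlap. This order rests on the exonic lengths. In CPM, for example, Amotl1 lay above Amotl2, and Yap1 and Tead1 lay above Tead4.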

How the data were processed

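Kidney ECs of 3 CTRL and 3 RbpjΔEC mice were sequenced, 1 library per mouse, and groups were taken from the sample labels. The authors prepared stranded total RNA libraries, aligned the reads to GRCm38 (tools named in the submitters' notes include Trim Galore 0.6.4, STAR 2.6.1d and Subread 1.6.4) and deposited raw counts per gene from featureCounts, without normalization, on the GENCODE M25 annotation; coordinates and exonic lengths here are from GENCODE M21 of the same build.

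The deposited counts were scaled by TMM to CPM and tested gene by gene with edgeR 4.0.16 in R 4.3.3 (filterByExpr, estimateDisp, robust glmQLFit, glmQLFTest, two-sided), with Benjamini-Hochberg adjustment over 18438 genes and a threshold of 0.05. Alternatives were DESeq2 1.42.0, limma-voom (limma 3.58.1), other scalings and filters, a replicate block and leaving out each library. The steps were tested on simulated data. Levels per kilobase are TMM-scaled CPM divided by exonic length. This length merges all annotated exons of a gene and need not be that of the transcript expressed. Counting errors cover the sampling of reads only, not PCR duplication or differences between mice.

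Same-numbered libraries did not deviate together (correlations 0.077, -0.07 and 0.013), so the numbers were not used to pair mice. The 10 genes and the other lists were chosen with earlier results of these data known, so no p-value is given over a list. From each other list the genes past the threshold (up to 6, smallest p first) and the 3 with the smallest p among the rest were named. Ptpn14 is in both the Hippo list and the target list. Besides the endothelial, lymphatic, leukocyte, tubule, mural and fibroblast markers, 1 further marker list is not reported here.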

Additional observations from a re-analysis of the deposited data

How the results depend on the processing

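None of the 10 pathway genes passed 0.05 under the 13 alternatives (129 values, of which 111 kept their direction, smallest adjusted p 0.0585 for Ccn1 with the replicate block, log2 fold change 0.38). The adjusted p of Hey1 was 0.0190 with the replicate block and ran from 0.0105 to 0.249 with 1 library left out. The genome-wide count of 209 was 1436 without a low-count filter, 944 with DESeq2, 344 with the replicate block and 21 to 700 with 1 library left out, so the thresholded counts rest on few libraries. The count of target genes called lower (3) was 6 without the filter, 5 with DESeq2 and 4 with the replicate block. It was 1 to 5 with 1 library left out, and 1 target gene was called higher without the filter. Immediate-early genes called higher (7) were 13 without the filter, 13 with DESeq2, 12 with the replicate block (Jun at an adjusted p of 0.0364 and Ier3 at 0.0150) and 0 to 12 with 1 library left out. For Hippo regulators (0), 1 higher and 1 lower were called without the filter, 1 lower with DESeq2, and 0 to 1 in each direction with 1 library left out, and 1 other CCN gene was higher without the filter. Mural markers called lower (3) were 7 without the filter, 7 with DESeq2, 4 with the replicate block, 1 with a minimum of 1 CPM in 3 libraries and 0 to 7 with 1 library left out. With the replicate block, the endothelial marker Ehd3 and the tubule marker Umod also passed by edgeR. Their log2 fold changes were -0.50 and -1.23 and their adjusted p-values 0.00743 and 0.00716. The causes were not tested. Changes near 0 turned sign: Tead4 was -0.001539 with DESeq2 size factors and -0.001559 with DESeq2, and Amotl1, Amotl2 and Ccn6 were 0.0256, 0.0118 and 0.0036 with scaling by totals alone. With 1 library left out, log2 fold changes ran from -0.0020 to 0.0441 for Yap1, -0.0293 to 0.14 for Tead1, -0.0794 to 0.0875 for Tead4, -0.0807 to 0.0147 for Amotl1, -0.17 to 0.0575 for Amotl2, -1.03 to 0.32 for Ankrd1, 0.20 to 0.58 for Ccn1, -0.26 to -0.10 for Lats2, -0.09 to -0.04 for Wwtr1, -0.51 to 0.0030 for Ccn2, -0.0015 to 0.10 for Vgll4, -0.0310 to 0.35 for Ccn3 and -0.21 to 0.19 for Ccn6, and the ratio differences from -0.11 to 0.0640 for Tead4 to Tead1 and -0.18 to 0.0736 for Amotl2 to Amotl1. Ankrd1 was too low to test with a minimum of 1 CPM in 3 libraries. The low counts of Ankrd1, and the spread of Ankrd1, Ccn1 and Ccn2 between mice, limit these 3 genes.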
